A study of Mus musculus with 6 samples.

Results

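The 39 genes described here encode proteins of autophagy, of mitophagy and of the lysosome. They were chosen by name from the known steps of the pathway, with earlier results of these data known. Each name was matched to a row of the estimated counts by gene identifier without its version. All 39 were found among 52740 gene rows, and each had enough counts to be tested. The cells were C2C12, a mouse line of proliferating muscle precursors, grown with 10% fetal bovine serum. The libraries labelled siCOX7A2L (3) received an siRNA that targets Cox7a2l, and those labelled siCTRL (3) a random control siRNA, in both cases by lipid transfection. Cox7a2l codes for a mitochondrial factor that links complexes III and IV of the respiratory chain. Whether the replicates are separate cultures is not in the labels, and the p-values cover only the spread between these libraries, which may be technical.

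Autophagy encloses cytoplasm in a double membrane and delivers it to the lysosome. The Ulk1 kinase complex starts the process, the Becn1 and Pik3c3 lipid kinase complex marks the growing membrane, and a pair of ubiquitin-like conjugation systems attaches proteins of the Atg8 family to it. Receptors such as Sqstm1 tie cargo to the Atg8 proteins, and in mitophagy Pink1, Bnip3l and related proteins mark mitochondria for this route. Lysosomal hydrolases then break the cargo down, in an acid lumen kept by the V-ATPase. In muscle cells the pathway removes damaged mitochondria and takes part in remodelling during differentiation.

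Cox7a2l itself stood at 6.72, 5.90 and 3.59 CPM (counts scaled to library size with TMM factors) in siCOX7A2L replicates 1, 2 and 3, against 58.0, 59.5 and 58.9 CPM in siCTRL, a log2 fold change of -3.44 ± 0.19 (standard error, here and after each later log2 fold change; edgeR adjusted p = 1.9e-05). Libraries held 9890218 to 15095348 estimated counts in siCOX7A2L, with the least in replicate 3, and 14310241 to 17077826 in siCTRL. Replicate 3 of both groups differed from replicates 1 and 2, and the edgeR fits below therefore treat libraries that share a number as a block. The labelled cell type was checked against 6 myoblast markers (Myod1, Myf5, Des, Cdh15, Itga7 and Vcam1), of which all were tested and none passed, with a summed level of 1583 to 3097 CPM in siCOX7A2L and 1703 to 2095 CPM in siCTRL. The 6 myotube markers summed to 20.22, 6.881 and 324.2 CPM in siCOX7A2L replicates 1, 2 and 3, against 8.582, 9.290 and 135.6 CPM in siCTRL, and 1 of the 5 tested, Acta1, passed. The 6 fibroblast markers summed to 3637, 5056 and 2777 CPM in siCOX7A2L replicates 1, 2 and 3, against 3213, 3255 and 1820 CPM in siCTRL, nearly all of it Col3a1, with Tcf21 at 0 in every library and Lum under 0.3 CPM. Of the 3 tested, 1 (Dcn) passed, with a log2 fold change of 1.72 ± 0.30 (edgeR adjusted p = 0.0419). Dcn differed by 2.33, 0.53 and 1.94 on the log2 scale in pairs 1, 2 and 3, and Pdgfra by 0.03, 0.53 and -0.16. Thy1, with too few counts to be tested, was lower with siCOX7A2L in all 3 pairs (0.112 to 0.351 CPM, against 0.290 to 0.688 CPM in siCTRL). The 6 macrophage markers, whose cells are rich in lysosomes, summed to 1.965 to 3.257 CPM in siCOX7A2L and 1.789 to 3.304 CPM in siCTRL, with Adgre1 at 0 in every library. Thus macrophage markers were near 0 in both groups. The summed myotube markers were high in replicate 3 of both groups and higher with siCOX7A2L in pairs 1 and 3. The fibroblast sum, in effect Col3a1, was higher with siCOX7A2L in all 3 pairs, as was Dcn, while neither Pdgfra nor Thy1 was. The part of the myotube and fibroblast markers in the results below was not tested. In bulk RNA, fewer cells of a type and less RNA per cell cannot be told apart.

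None of the 39 genes passed the test over all genes (edgeR adjusted p under 0.05), where 0.726% of 15022 genes did. The smallest adjusted p was 0.105, for Sqstm1. At an unadjusted p under 0.05 edgeR counted 11 members, or 28.2%, against 17.7% of all genes tested. Of these, 10 had positive and 1 (Bnip3l) a negative log2 fold change, against 8.74% and 8.97% of all genes. Without the block 3 members (7.69%) had an unadjusted p under 0.05, against 6.35% of all genes. DESeq2 with the block called 1 member, Sqstm1 (adjusted p = 0.0301), where it called 4.5% of the genes with an adjusted p. The limma fit on TPM, a share of transcripts corrected for length, called 0 members where it called 0.0932% of genes. The authors' deposited table gave 3 members an adjusted p under 0.05, or 7.69% of them, and 6.34% of the genes with an adjusted p had one under 0.05. They were Sqstm1 (log2 fold change 0.47, adjusted p = 0.00906), Ulk1 (0.47, adjusted p = 0.0224) and Nbr1 (0.37, adjusted p = 0.0311) in the authors' deposited table. In edgeR 0 members passed without the block, where 0.0133% of genes did, and 3 passed without the filter on low counts, where 4.7% did. By adjusted p the members' shares lie near those of all genes, so the calls alone do not set the members apart.

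Most members leaned one way without passing. They were chosen with earlier results of these data known, so their contrast with all genes is not independent support. The log2 fold change was positive for 32 of 39 members, or 82.1%, against 51.1% of all genes, and the median was 0.21 against 0.008 for all genes tested. In 17 members (43.6%) the siCOX7A2L library was above the siCTRL library of the same number in all 3 pairs, where 21.2% of all genes showed this. In 2 members, Bnip3l and Mitf, it was below in all 3 pairs, where 20.8% of all genes did. All 3 siCOX7A2L libraries were above all 3 siCTRL libraries for 9 members, where 7.96% of all genes were, and below for 1, Mitf, where 7.62% were. The sizes were small, from -0.39 to 0.50 on the log2 scale. The lean depended on the scaling. With TPM as deposited, 14 of 39 members were positive, where 23.2% of all genes were. The members' median was -0.09, while the median of all genes was -0.21. An unnamed gene row took 44.2%, 46.3% and 53.6% of TPM in siCOX7A2L replicates 1, 2 and 3, against 42.5%, 41.4% and 36.9% in siCTRL. With TPM rescaled without that row, 28 members were positive, where 44.5% of all genes were. The members' median was then 0.10, against -0.04 for all genes.

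**Figure D1:**
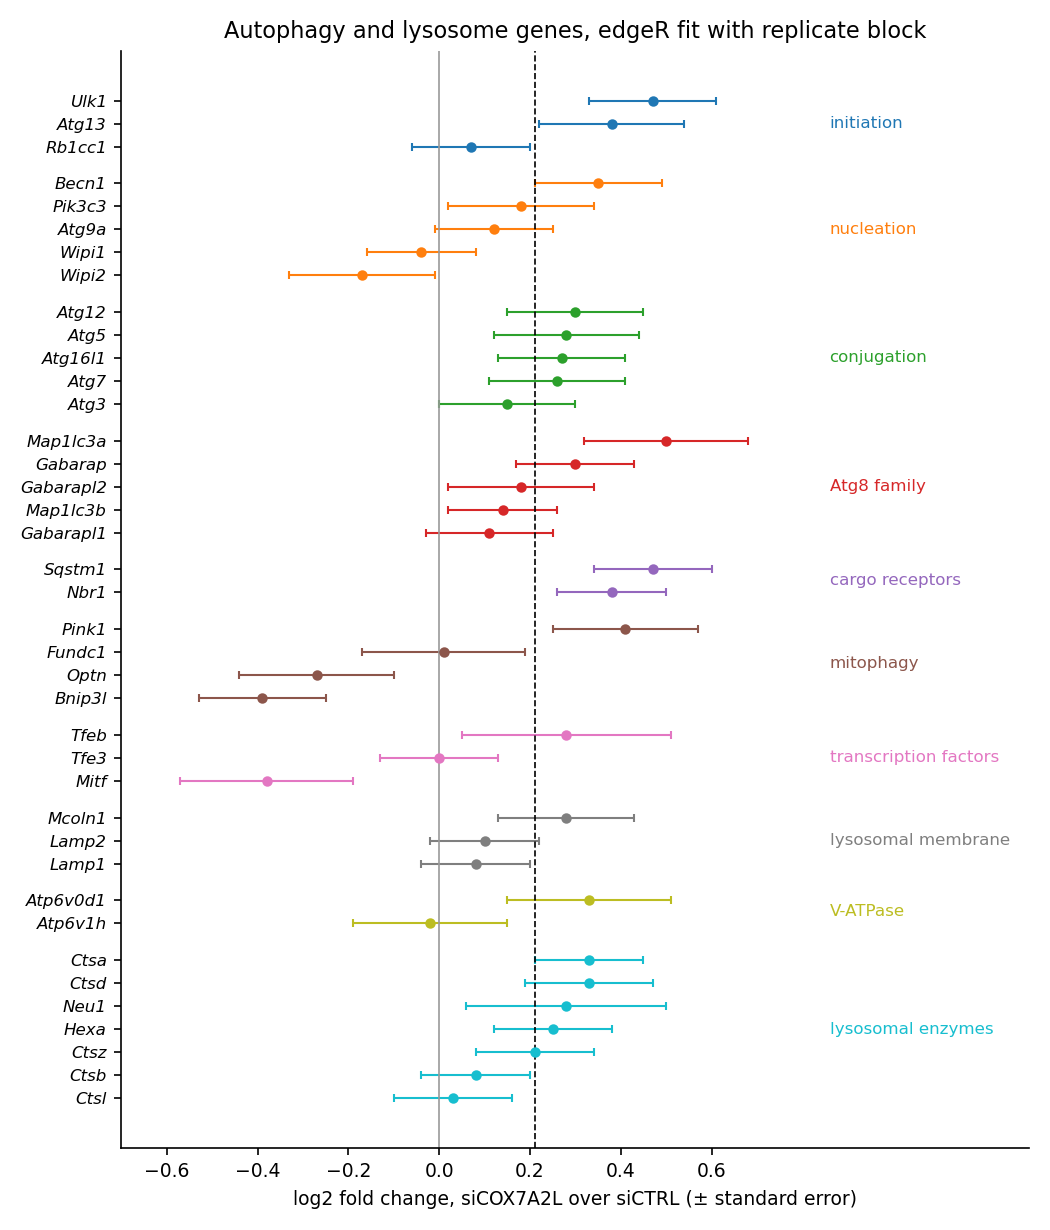
Log2 fold change of each of the 39 genes, siCOX7A2L over siCTRL, on the horizontal axis, from edgeR on TMM-scaled counts with the replicate block. Bars are standard errors and colours mark the step of the pathway. The dashed line is the median of the members (0.21), and none of the genes passed the test over all genes. With TPM as deposited the median of the members is -0.09 and that of all genes -0.21.

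The 3 classes set side by side were the autophagy core, mitophagy and the lysosomal enzymes. Of 18 core genes 16 lay above 0, with a median log2 fold change of 0.22 (with deposited TPM 8 of 18, median -0.05, which is 0.16 above the median of all genes). Of 7 lysosomal enzymes 7 were positive, with a median of 0.25 (with deposited TPM 2 of 7, median -0.06, which is 0.15 above all genes). Of 4 mitophagy genes 2 were positive, with a median of -0.13 (with deposited TPM 1 of 4, median -0.37, which is 0.16 below all genes). No member of the 3 classes passed, and no test was made of the difference between classes. The medians of pairs 1, 2 and 3 were 0.14, 0.16 and 0.36 for the core, 0.17, 0.04 and 0.39 for the enzymes and -0.21, 0.03 and -0.05 for mitophagy. Pair 3 thus had the highest median in the core and in the enzymes, and the mitophagy genes spread to both sides of 0 in each pair. Over all members the pair medians were 0.12, 0.08 and 0.38, against 0.002, 0.003 and 0.007 for all genes. The number of members with a positive difference was 27, 26 and 33 in pairs 1, 2 and 3.

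**Figure D2:**
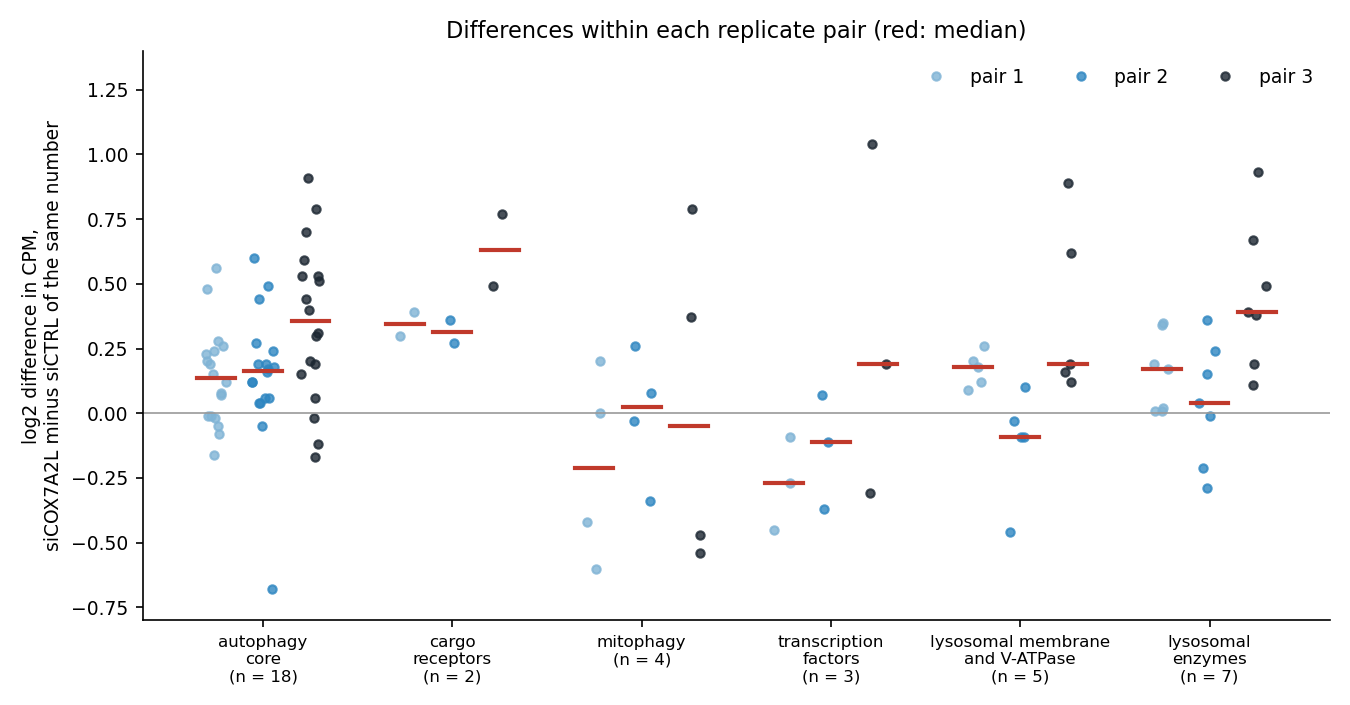
Log2 difference in TMM-scaled CPM between the siCOX7A2L and the siCTRL library of the same replicate number, on the vertical axis, for each member (points) by class and pair, with the class median in red. The core and enzyme medians are above 0 in each pair and highest in pair 3 (0.36 and 0.39), and the mitophagy medians lie between -0.21 and 0.03. Class medians of the core and the enzymes turn to -0.05 and -0.06 in the fit on deposited TPM.

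Among the initiation genes, Ulk1 encodes the kinase that starts autophagy. Ulk1 (ENSMUSG00000029512.12) had 72.0, 83.0 and 93.4 CPM in siCOX7A2L replicates 1, 2 and 3, against 61.4, 59.0 and 57.4 CPM in siCTRL. The groups did not overlap, and replicate 3 held both the highest siCOX7A2L and the lowest siCTRL value. Ulk1 had a log2 fold change of 0.47 ± 0.14, short of the threshold (edgeR adjusted p = 0.113). Atg13, a regulatory subunit of the Ulk1 complex, averaged 37.1 ± 3.48 CPM in siCOX7A2L and 28.5 ± 4.06 CPM in siCTRL (SD, n = 3 each), likewise without overlap (edgeR adjusted p = 0.246). Rb1cc1, the scaffold known as FIP200, had overlapping groups and a log2 fold change of 0.07 ± 0.13.

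Among genes that nucleate the membrane, Becn1 is a core subunit of the lipid kinase complex. Becn1 (ENSMUSG00000035086.14) had 71.7, 68.2 and 63.9 CPM in siCOX7A2L replicates 1, 2 and 3, against 58.9, 60.3 and 42.5 CPM in siCTRL. All siCOX7A2L values lay above all siCTRL values, and the low siCTRL replicate 3 gave the widest gap. Becn1 had a log2 fold change of 0.35 ± 0.14 (edgeR adjusted p = 0.216). Of its 31-base words (stretches of its transcripts), 40.0% also occur on the opposite strand of other transcripts, among them Cntd1, which had at most 0.127 CPM. Pik3c3, the kinase of the complex, had a log2 fold change of 0.18 ± 0.16. Atg9a, a membrane protein that supplies lipid, had 0.12. The lipid-binding proteins Wipi1 and Wipi2 had -0.04 and -0.17. In Wipi2 the difference came from pair 2 alone, with -0.02, -0.68 and 0.19 in pairs 1, 2 and 3.

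The conjugation genes were close to each other. Atg7 is the activating enzyme, Atg3 transfers Atg8 proteins to lipid, and Atg12 is the ubiquitin-like protein that joins Atg5 and Atg16l1. Atg12 (ENSMUSG00000032905.6), the member of this step with the smallest p, had 33.5, 28.8 and 31.6 CPM in siCOX7A2L replicates 1, 2 and 3, against 22.6, 25.6 and 28.4 CPM in siCTRL. Its groups did not overlap, by a narrow margin between siCOX7A2L replicate 2 and siCTRL replicate 3. Atg12 had a log2 fold change of 0.30 ± 0.15 (edgeR adjusted p = 0.337). Those of Atg5, Atg16l1, Atg7 and Atg3 were 0.28, 0.27, 0.26 and 0.15, with edgeR adjusted p from 0.348 to 0.669. Atg5 and Atg16l1 also had groups without overlap.

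The Atg8 family falls into the LC3 and GABARAP branches. Map1lc3a (ENSMUSG00000027602.10) had 24.7, 39.9 and 71.2 CPM in siCOX7A2L replicates 1, 2 and 3, against 25.5, 26.3 and 37.9 CPM in siCTRL. The groups overlapped, with pair 1 level and pair 3 far apart. Map1lc3a had a log2 fold change of 0.50 ± 0.18, the highest of all members (edgeR adjusted p = 0.193). Map1lc3b, the LC3 form most used as a marker of autophagosomes, had 72.3, 82.5 and 70.5 CPM in siCOX7A2L, against 69.1, 73.9 and 61.6 CPM in siCTRL. Its groups overlapped and each pair differed by at most 0.20 on the log2 scale (log2 fold change 0.14 ± 0.12, edgeR adjusted p = 0.603, and -0.09 with deposited TPM). Gabarapl1 had 34.0, 39.3 and 44.2 CPM in siCOX7A2L, against 34.3, 32.5 and 42.4 CPM in siCTRL, with overlap (log2 fold change 0.11 ± 0.14, edgeR adjusted p = 0.735, and -0.13 with deposited TPM). Gabarap and Gabarapl2 had log2 fold changes of 0.30 and 0.18 (edgeR adjusted p = 0.247 and 0.608).

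Per length, Gabarap made up most of the family. It held 54.3%, 52.4% and 70.0% of the family's summed TPM in siCOX7A2L replicates 1, 2 and 3, against 54.1%, 55.1% and 68.5% in siCTRL. Map1lc3b held 16.8%, 18.6% and 8.38% in siCOX7A2L, against 17.5%, 17.5% and 10.5% in siCTRL. The shares of Gabarap and Map1lc3b thus differed more between replicate 3 and the other replicates than between the siRNAs. Map1lc3a held 10.8%, 14.0% and 14.0% in siCOX7A2L, against 10.6%, 10.9% and 11.0% in siCTRL. These shares do not depend on the scaling between libraries, but they do depend on the transcript length used for each gene. The log2 ratio of count to TPM, centred on each library's median, was compared between replicate 3 and the other replicates. For Gabarap it differed by -0.34 in siCOX7A2L and -0.26 in siCTRL, and for the rest of the family by 0.05 to 0.61.

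The cargo receptors Sqstm1 and Nbr1 had, with Ulk1, the 3 smallest p-values of the members. Sqstm1 encodes p62, which binds ubiquitin and Atg8 proteins and is itself degraded with the cargo. Sqstm1 (ENSMUSG00000015837.16) had 517, 499 and 655 CPM in siCOX7A2L replicates 1, 2 and 3, against 396, 414 and 385 CPM in siCTRL. The groups did not overlap, and the 3 siCTRL libraries lay close together at 398 ± 14.4 CPM (SD, n = 3). Sqstm1 had a log2 fold change of 0.47 ± 0.13 (edgeR adjusted p = 0.105). Without replicate 2 it was 0.57 and passed (edgeR adjusted p = 0.0316), in a fit that called 7.87% of all genes. Of its words 16.4% occur on the opposite strand of other transcripts, among them Mrnip, at 2.43 to 4.60 CPM.

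Nbr1, a receptor of similar build, was named after its values were seen, because the authors' deposited table calls it. It had 98.1, 101 and 110 CPM in siCOX7A2L replicates 1, 2 and 3, against 79.9, 79.2 and 78.4 CPM in siCTRL. The siCTRL libraries differed by less than 2 CPM and all siCOX7A2L libraries lay above them. The log2 fold change of Nbr1 was 0.38 ± 0.12 (edgeR adjusted p = 0.139). Its pairs gave 0.30, 0.36 and 0.49. With deposited TPM the log2 fold change of Nbr1 was -0.06, which is less negative than the -0.21 of all genes, and that of Sqstm1 stayed positive.

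**Figure D3:**
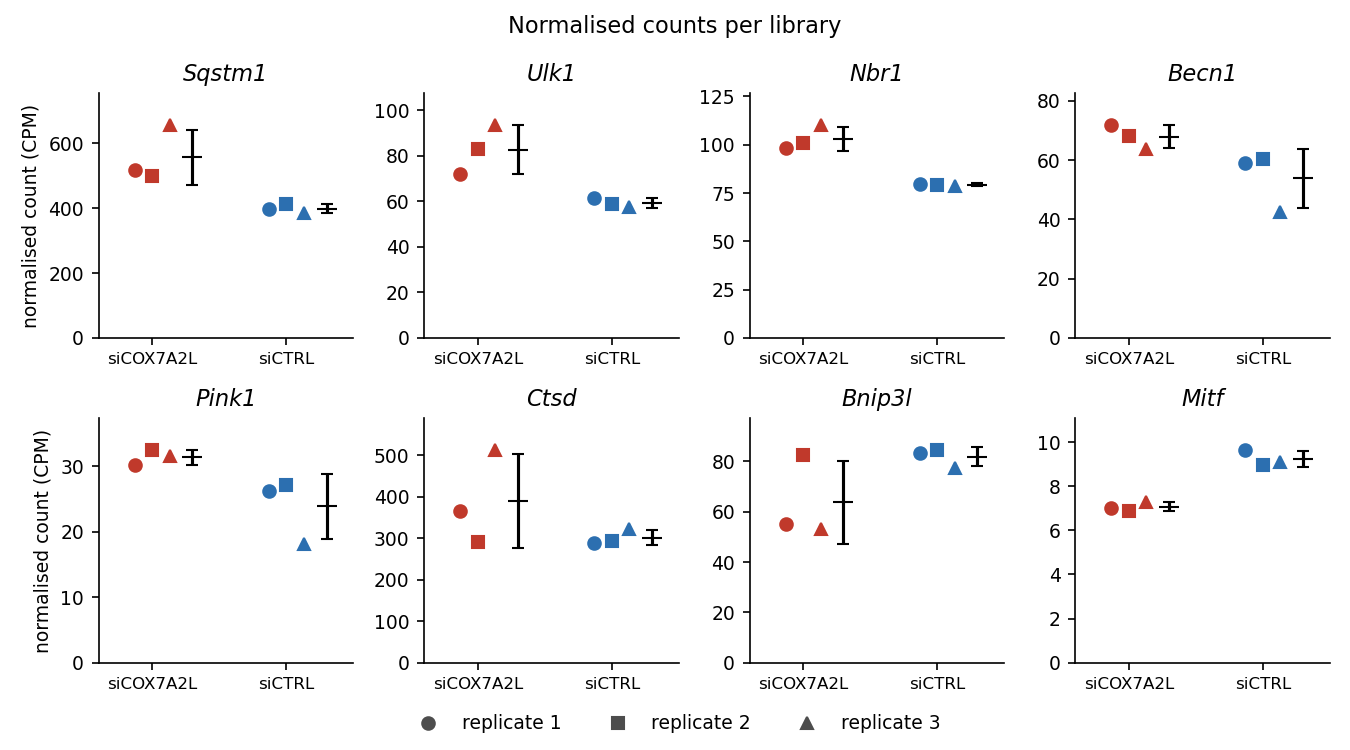
Normalised counts (TMM-scaled CPM, vertical axes starting at 0) of 8 members in each library, siCOX7A2L in red on the left and siCTRL in blue on the right, with the replicate number as the symbol and mean ± SD (n = 3) in black. The groups do not overlap for Sqstm1, Ulk1, Nbr1, Becn1, Pink1 and Mitf, and they overlap for Ctsd and Bnip3l. With deposited TPM the log2 fold change of Nbr1 is -0.06.

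The mitophagy genes went in both directions. Pink1, the kinase that builds up on damaged mitochondria, had 30.2, 32.5 and 31.6 CPM in siCOX7A2L replicates 1, 2 and 3, against 26.3, 27.1 and 18.1 CPM in siCTRL. Its groups did not overlap, and siCTRL replicate 3 was the low value (log2 fold change 0.41 ± 0.16, edgeR adjusted p = 0.218). Bnip3l, a receptor in the outer mitochondrial membrane also called NIX, had 55.1, 82.6 and 53.3 CPM in siCOX7A2L, against 83.3, 84.5 and 77.4 CPM in siCTRL. Replicates 1 and 3 of siCOX7A2L were low and replicate 2 was level with siCTRL, so the groups overlapped. The log2 fold change of Bnip3l (ENSMUSG00000022051.16) was -0.39 ± 0.14, short of the threshold (edgeR adjusted p = 0.199). Without replicate 2, which left 2 pairs, it was -0.58 and passed (edgeR adjusted p = 0.0400), in the fit in which Sqstm1 also passed. Of its words 23.7% are shared with the pseudogene Bnip3l-ps, which was listed at 0 in all 6 libraries.

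The other mitophagy members did not pass. Optn, a ubiquitin-binding receptor, had pair values of -0.42, 0.08 and -0.47, the same pattern over the pairs as Bnip3l, whose pairs gave -0.60, -0.03 and -0.54. Its log2 fold change was -0.27 ± 0.17 (edgeR adjusted p = 0.456). Fundc1, another receptor of the outer membrane, had a log2 fold change of 0.01 ± 0.18. Bnip3, the close relative of Bnip3l and also a hypoxia-responsive gene, had 30.2, 30.8 and 14.3 CPM in siCOX7A2L replicates 1, 2 and 3, against 41.5, 37.8 and 19.6 CPM in siCTRL. It was lower in each pair and did not pass (log2 fold change -0.40 ± 0.14, edgeR adjusted p = 0.178).

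Tfeb, Tfe3 and Mitf are related factors that can switch on lysosomal and autophagy genes once they enter the nucleus, so their transcript level need not follow their activity. Mitf (ENSMUSG00000035158.16) had 7.03, 6.88 and 7.30 CPM in siCOX7A2L replicates 1, 2 and 3, against 9.64, 8.95 and 9.10 CPM in siCTRL. Both groups were tight and did not overlap, at low counts (log2 fold change -0.38 ± 0.19, edgeR adjusted p = 0.328). Tfeb had 12.2, 13.1 and 21.9 CPM in siCOX7A2L, against 13.0, 14.2 and 10.5 CPM in siCTRL. Its difference lay in pair 3 alone, with -0.09, -0.11 and 1.04 in pairs 1, 2 and 3. The log2 fold change of Tfeb was 0.28 ± 0.23 (edgeR adjusted p = 0.581), -0.10 without replicate 3 and -0.12 with deposited TPM. Tfe3 had 0.00 ± 0.13.

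These factors bind the CLEAR element, whose core is the E-box CACGTG. RefSeq promoter windows (GRCm38.p6, from 250 bases before to 50 after a start site) matched 30 of the 39 members. Atg12, Atg16l1, Atp6v1h, Becn1, Bnip3l, Ctsb, Map1lc3a, Pik3c3 and Rb1cc1 were not matched. TCACGTG, on either strand, was in a window of 7 members (23.3%), against 4.29% of the 27025 genes in the table. CACGTG, which lies within it, was in 9 members (30.0%), against 8.09%. The full CLEAR palindrome, the core with matching flanks, was in 0 of 30 members and in 0.37% of all genes. The stretches with TCACGTG matches are shown because these 7 members, from several steps of the pathway, have that sequence in common. They are read 5′ to 3′ along the gene with each TCACGTG or its reverse complement in capitals.
Lamp1, chr8:13159087-13159160, plus strand: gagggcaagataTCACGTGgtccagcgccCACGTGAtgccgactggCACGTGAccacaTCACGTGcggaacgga
Mcoln1, chr8:3500435-3500492, plus strand: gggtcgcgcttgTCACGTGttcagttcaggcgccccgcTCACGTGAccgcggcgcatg
Atg3, chr16:45158722-45158776, plus strand: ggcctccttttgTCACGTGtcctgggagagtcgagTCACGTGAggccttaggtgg
Ctsa, chr2:164833757-164833786, plus strand: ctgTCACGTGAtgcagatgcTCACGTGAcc
Ctsd, chr7:142387907-142387938, minus strand: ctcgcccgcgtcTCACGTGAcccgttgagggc
Atp6v0d1, chr8:105566050-105566079, minus strand: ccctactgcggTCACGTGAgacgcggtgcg
Atg7, chr6:114670951-114670981, plus strand: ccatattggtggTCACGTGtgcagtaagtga

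Lamp1 held 4 cores within 74 bases before its start, and Mcoln1, Atg3 and Ctsa held 2 each in the stretch shown. On TMM-scaled counts the 7 members with TCACGTG had a median log2 fold change of 0.28 with 7 positive, and the other 23 matched members a median of 0.18 with 18 positive. Lamp1, with the most cores, had a log2 fold change of 0.08 on these counts, so the number of cores did not order the values. With deposited TPM Lamp1 was negative, so not all 7 were positive on that scale. A match is a description of these letters and no evidence of binding.

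At the lysosomal membrane, Lamp1 and Lamp2 are the abundant coat glycoproteins and Mcoln1 is a calcium channel. Lamp1 (ENSMUSG00000031447.8) had 314, 295 and 351 CPM in siCOX7A2L replicates 1, 2 and 3, against 294, 301 and 314 CPM in siCTRL. Lamp2 had 120, 94.8 and 110 CPM in siCOX7A2L, against 104, 101 and 96.7 CPM in siCTRL. In both genes the groups overlapped, with log2 fold changes of 0.08 ± 0.12 and 0.10 ± 0.12 (edgeR adjusted p = 0.786 and 0.727, and -0.20 and -0.10 with deposited TPM). Mcoln1 had 50.4, 49.3 and 87.7 CPM in siCOX7A2L, against 46.5, 45.9 and 56.9 CPM in siCTRL, so that replicate 3 of each group stood above its replicates 1 and 2. Mcoln1 had a log2 fold change of 0.28 ± 0.15 (edgeR adjusted p = 0.345), with 0.12, 0.10 and 0.62 in pairs 1, 2 and 3. In a fit without the block that left out siCOX7A2L replicate 3 but kept siCTRL replicate 3, the log2 fold change was 0.00.

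The V-ATPase, which acidifies the lysosome, was represented by a subunit of each sector. Atp6v0d1, of the membrane sector, had 59.3, 50.3 and 79.7 CPM in siCOX7A2L replicates 1, 2 and 3, against 52.4, 53.5 and 43.1 CPM in siCTRL. Its groups overlapped and pair 3 gave most of the difference (log2 fold change 0.33 ± 0.18, edgeR adjusted p = 0.377). Atp6v1h, of the cytosolic sector, had a log2 fold change of -0.02 ± 0.17.

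Among lysosomal enzymes, Ctsa (ENSMUSG00000017760.17) encodes a carboxypeptidase that also protects Neu1. It had 111, 101 and 146 CPM in siCOX7A2L replicates 1, 2 and 3, against 86.8, 91.5 and 104 CPM in siCTRL. Each pair was higher in siCOX7A2L, while siCOX7A2L replicate 2 lay below siCTRL replicate 3. Ctsa had a log2 fold change of 0.33 ± 0.12 (edgeR adjusted p = 0.200). Ctsd, the main aspartic protease of the lysosome, had 365, 290 and 512 CPM in siCOX7A2L, against 288, 293 and 322 CPM in siCTRL. Pair 2 was level and pairs 1 and 3 were apart (log2 fold change 0.33 ± 0.14, edgeR adjusted p = 0.253). Of the words of Ctsd 33.2% are shared with the gene Gm49369, listed at 0.898 to 3.42 CPM in siCOX7A2L and at 0 to 0.726 CPM in siCTRL, so the split of reads between them is uncertain. Atg9a (32.0%) and Gabarapl2 (15.2%) also share words with other genes, and Ctsl (28.1%), Gabarapl1 (25.2%), Ctsa (14.4%) and Ctsb (12.4%) with opposite strands.

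The cysteine proteases Ctsb and Ctsl were the most level of the enzymes. Ctsb had 462, 463 and 457 CPM in siCOX7A2L replicates 1, 2 and 3, against 458, 449 and 401 CPM in siCTRL (log2 fold change 0.08 ± 0.12, edgeR adjusted p = 0.766, and -0.19 with deposited TPM). Ctsl had 319, 247 and 297 CPM in siCOX7A2L, against 280, 286 and 276 CPM in siCTRL (log2 fold change 0.03 ± 0.13, edgeR adjusted p = 0.928, and -0.30 with deposited TPM). Both had overlapping groups. Ctsz, a carboxypeptidase, Hexa, the alpha subunit of hexosaminidase, and Neu1, a sialidase, had log2 fold changes of 0.21, 0.25 and 0.28 (edgeR adjusted p = 0.412, 0.351 and 0.548). In Neu1 the pairs gave 0.17, -0.29 and 0.93.

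Per length, the same 6 members had the highest mean levels in both groups. In siCOX7A2L, Sqstm1 (218 ± 12.4 TPM), Ctsb (182 ± 90.7), Ctsl (162 ± 51.7), Gabarap (160 ± 49.6), Ctsd (138 ± 21.8) and Lamp1 (109 ± 16.5) led, each the mean TPM ± SD of 3 libraries. In siCTRL they were Sqstm1 (195 ± 17.0 TPM), Ctsb (194 ± 65.3), Ctsl (193 ± 14.9), Gabarap (163 ± 61.6), Ctsd (133 ± 17.6) and Lamp1 (124 ± 7.05). Neighbours among Sqstm1, Ctsb, Ctsl and Gabarap did not differ beyond their spread in either group. Ctsb had more TPM than Sqstm1 in replicates 1 and 2 of both groups and less in replicate 3 of both, at 78.9 against 213 TPM in siCOX7A2L and 119 against 214 TPM in siCTRL. Bnip3l was next in both groups, at 62.6 ± 27.0 TPM in siCOX7A2L and 82.9 ± 12.3 TPM in siCTRL. The lowest members were Mitf (1.85 ± 0.378 TPM in siCOX7A2L and 2.89 ± 0.135 TPM in siCTRL), and then Pik3c3, Atg5, Atg12 and Tfeb, the other 4 all under 7 TPM and not apart beyond their spread. Optn stood among these in siCOX7A2L, at a mean of 5.52 TPM, and above them in siCTRL, at a mean of 7.72 TPM.

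Replicate 3 was compared with the mean of replicates 1 and 2 within each group, as 1 library against 2 with no test. In siCOX7A2L 31 of 39 members were higher in replicate 3, with a median log2 difference of 0.17, and in siCTRL 16 were, with a median of -0.04. For all genes the medians were -0.018 in siCOX7A2L and -0.01 in siCTRL. Map1lc3a, Atg3 and Gabarap were higher in replicate 3 of both groups, by 1.18, 1.06 and 0.90 in siCOX7A2L and by 0.55, 0.67 and 0.55 in siCTRL. Pik3c3 was lower in both, at -0.76 in siCOX7A2L and -0.32 in siCTRL. Tfeb, Neu1 and Atp6v0d1 stood higher in replicate 3 of siCOX7A2L alone (0.78, 0.97 and 0.54, against -0.36, -0.02 and -0.30 in siCTRL). The myotube markers, given above, were highest in the same 2 libraries. In the block fit without replicate 3, 28 of 39 members were positive, with a median of 0.11, against 32 and 0.21 with it, and none passed, where 0.339% of all genes did (smallest edgeR adjusted p = 0.219). At an unadjusted p under 0.05, 5 members were counted (12.8%), against 13.8% of all genes.

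**Figure D4:**
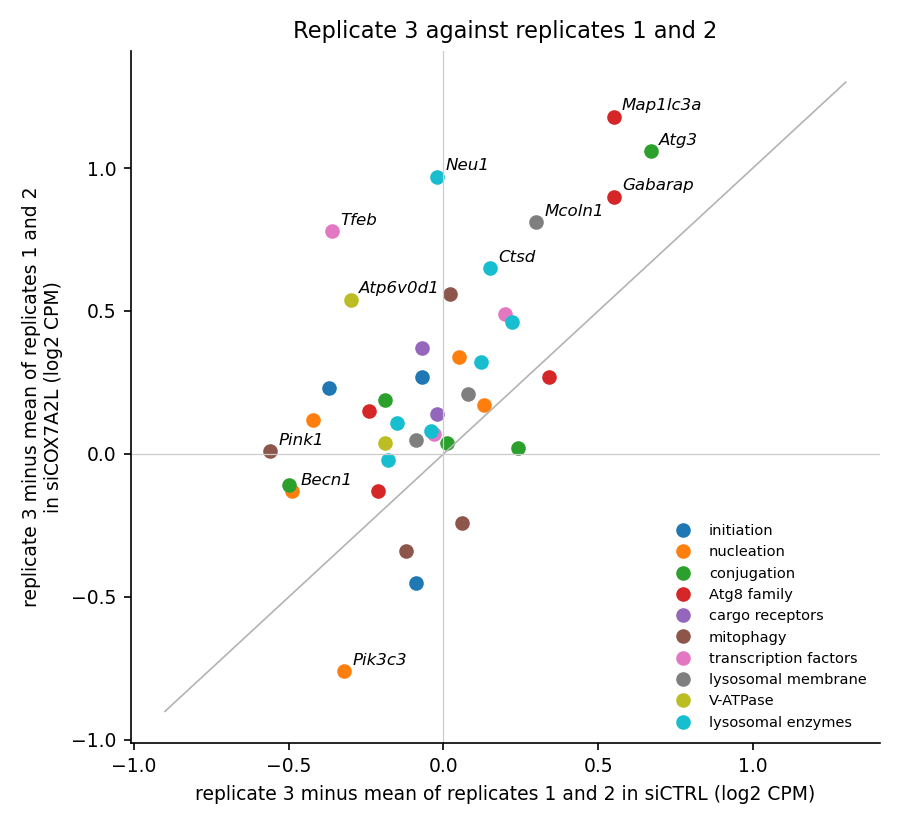
Log2 difference in CPM between replicate 3 and the mean of replicates 1 and 2, in siCOX7A2L on the vertical axis and in siCTRL on the horizontal axis, for each of the 39 genes coloured by step, with the line of equal values in grey. Map1lc3a, Atg3 and Gabarap are high in replicate 3 of both groups, and Tfeb, Neu1 and Atp6v0d1 in siCOX7A2L alone.

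Further genes of the pathway were taken from 6 lists made by function, also with earlier results of these data known. Of 141 genes listed 136 were tested, and 2 rose over all genes (1.47%, edgeR, against 0.433% of all genes called higher), with 0 lower (0.293% of all genes). The median log2 fold change was 0.11, with 94 of 136 positive (69.1%), against 51.1% of all genes. With deposited TPM 41 were positive, where 23.2% of all genes were. The median was then -0.14, or 0.07 above that of all genes. Each of the 6 list medians below, positive on TMM-scaled counts, was negative on deposited TPM, from -0.23 to -0.08, and those of mTORC1 and AMPK and of mitophagy also by library size alone (-0.01 and -0.02). At an unadjusted p under 0.05 edgeR counted 21 of the 136, or 15.4%, which is below the 17.7% of all genes. Of these 20 were higher and 1 lower, against 8.74% and 8.97% of all genes.

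Both genes that rose were among 30 other autophagy genes (21 positive, median 0.09). Nrbf2, a regulatory subunit of the Becn1 complex, had 19.1, 17.1 and 29.1 CPM in siCOX7A2L replicates 1, 2 and 3, against 9.97, 10.8 and 12.8 CPM in siCTRL. The groups were clearly apart, with a log2 fold change of 0.93 ± 0.17 (edgeR adjusted p = 0.0400). Calcoco1, a relative of the autophagy receptors that acts in turnover of the endoplasmic reticulum, had 69.0, 89.0 and 137 CPM in siCOX7A2L, against 48.7, 50.5 and 70.5 CPM in siCTRL. It was higher in each pair, and siCTRL replicate 3 slightly overlapped siCOX7A2L replicate 1 (log2 fold change 0.76 ± 0.13, edgeR adjusted p = 0.0378). Neither call held without the block, with log2 fold changes of 0.95 for Nrbf2 and 0.79 for Calcoco1 (edgeR adjusted p = 0.735 and 0.754), without replicate 3 (0.80 and 0.66, edgeR adjusted p = 0.0834 and 0.0715) or by library size alone (0.88 and 0.71, edgeR adjusted p = 0.0607 and 0.0541). With deposited TPM the log2 fold changes were smaller, 0.56 for Nrbf2 and 0.47 for Calcoco1, and did not pass (limma adjusted p = 0.365 and 0.379).

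In the other lists none passed. Of 35 other lysosomal enzymes tested 28 were positive, with a median of 0.16, where 51.1% of all genes were positive. At an unadjusted p under 0.05 edgeR counted 7 of the 35, all higher. Of all genes 17.7% were counted at that threshold, 8.74% higher and 8.97% lower. Ctso, a cysteine protease, had 8.43, 8.85 and 9.77 CPM in siCOX7A2L replicates 1, 2 and 3, against 4.89, 3.99 and 3.42 CPM in siCTRL, without overlap (log2 fold change 1.14 ± 0.23, edgeR adjusted p = 0.0521). Glb1, beta-galactosidase, averaged 52.2 ± 11.4 CPM in siCOX7A2L and 33.5 ± 5.40 CPM in siCTRL (SD, n = 3 each), or 0.63 higher on the log2 scale (edgeR adjusted p = 0.0576). Among 20 genes of the lysosomal membrane and of sorting (15 positive, median 0.12), Igf2r, which carries hydrolases to the lysosome, had 0.56 and Grn, the progranulin precursor, 0.36 (edgeR adjusted p = 0.0598 and 0.170).

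Of 16 other V-ATPase subunits 11 were positive, with a median of 0.14 (-0.01 without replicate 3), led by Atp6v1f at 0.60 and Atp6v1g1 at 0.54 (edgeR adjusted p = 0.118 each). Of 25 tested genes of mTORC1 and AMPK, which restrain and start autophagy, 14 were positive, with a median of 0.04. Prkab2, a subunit of AMPK, had 0.66 and Lamtor1, an anchor of mTORC1 at the lysosome, 0.61 (edgeR adjusted p = 0.0898 and 0.0881). Of 10 other mitophagy genes 5 were positive, with a median of 0.03. Leaving out a pair moved this to 4 positive (median -0.05) without replicate 1, 8 (0.12) without replicate 2 and 2 (-0.05) without replicate 3. Besides Bnip3, given above, Mul1, a ubiquitin ligase, had the smallest p, at 0.44 (edgeR adjusted p = 0.294).

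**Figure D5:**
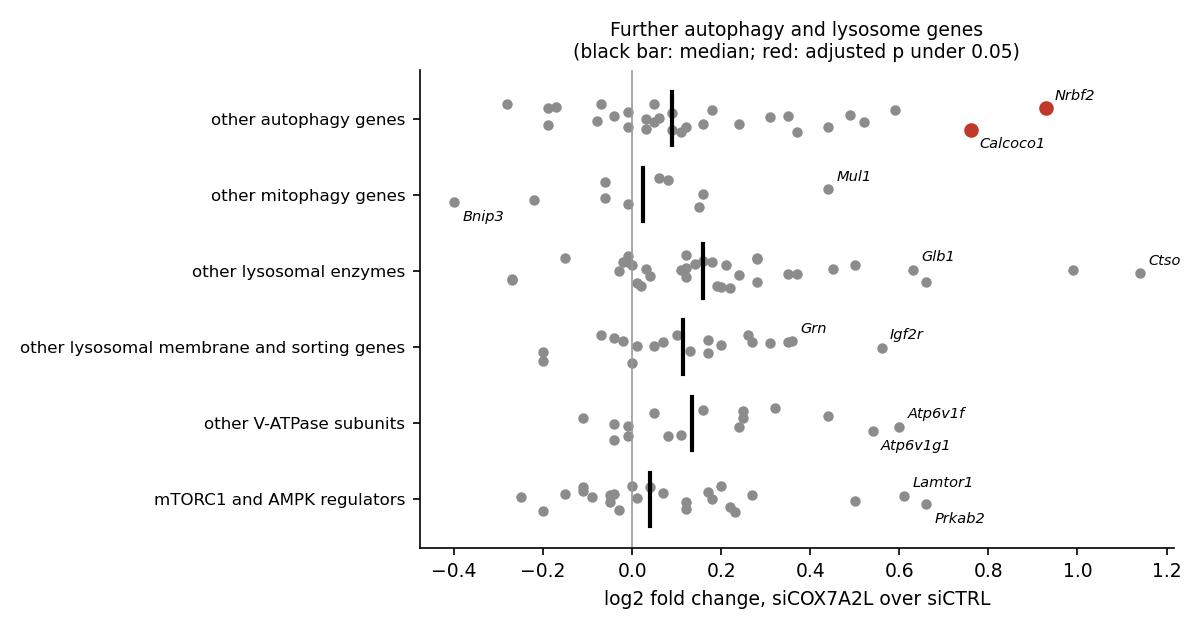
Log2 fold change of further genes of the pathway, siCOX7A2L over siCTRL, on the horizontal axis, by list, from edgeR with the replicate block. Each point is a gene, the black bar is the median of the list and red points passed the test over all genes. Nrbf2 and Calcoco1 passed, and list medians run from 0.03 to 0.16, and from -0.23 to -0.08 with deposited TPM.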

How the data were processed

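The 6 libraries are ribosomal RNA-depleted, dUTP-stranded total RNA, per the labels' protocols. Salmon 0.13.1, Trim Galore 0.6.4, the build mm39 and DESeq2 1.30.1 are listed, without roles, in the submitters' processing notes. The authors deposited estimated counts per gene, not scaled to depth, and TPM. The authors' deposited table holds, per the file headers, scaled counts (a normalised signal, not used here), log2 fold changes with standard errors, a test statistic (a score, not used here) and p-values with adjusted p-values, with no model named.

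Estimated counts were rounded and fitted with edgeR 4.0.16 in R 4.3.3 (TMM, default filter by group, robust quasi-likelihood, replicate number as block, Benjamini-Hochberg over all genes). The design foresaw counts, hence the rounding. Per-library log2 values used a prior count of 2. DESeq2 1.42.0 and limma 3.58.1 served as alternatives. The analysis was tested on simulated data. The block follows the replicate numbers in the labels: deviations from the group means correlated at 0.532, 0.452 and 0.669 for equal numbers, against at most 0.435 for unequal ones, so the pairing is clear only for replicate 3. Symbols came from GENCODE M21 for 97.6% of rows. Shared sequence was counted as 31-base words of GENCODE transcripts, and no source used here says whether counting used the strand.

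The members and lists were chosen with earlier results of these data known. Values per library are given for each member that passed, for the member with the smallest p in each step, and for a set list of 14 genes, which overlap those (Ulk1, Becn1, Map1lc3b, Gabarapl1, Sqstm1, Pink1, Bnip3l, Tfeb, Mitf, Lamp1, Lamp2, Ctsb, Ctsd and Ctsl). Of each further list, the genes that passed or else the 2 with the smallest p are named.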

Additional observations from a re-analysis of the deposited data

How the results depend on the processing

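The count of called genes depended on the model, and the members' signs on the scaling (32 of 39 positive on TMM-scaled counts, 14 on deposited TPM). Over all genes 109 passed (65 higher, 44 lower), 2 with no replicate block, 197 with a term for replicate 3, 58 by library size alone (41 higher, 17 lower), 1257 with no filter, 495 with DESeq2, 14 and 11 with limma on log2(TPM + 0.5) and log2(TPM + 1), and 4 on TPM rescaled without the unnamed row, an alternative chosen after seeing the data. It was 373, 1210 and 51 without replicate 1, 2 or 3 under the block, and 0 to 1210 over all fits that left out a library or pair. Of the members 0 passed with or without the replicate block (11 and 3 at an unadjusted p under 0.05, against 17.7% and 6.35% of all genes), 3 with no filter (Map1lc3a, Sqstm1 and Ulk1, adjusted p = 0.0443, 0.0121 and 0.0277), 1 with DESeq2 (Sqstm1, adjusted p = 0.0301) and 0 to 2 with a library or pair left out (Bnip3l at -0.58 and Sqstm1 at 0.57 without replicate 2). Of the further genes 2 passed, where 0.726% of all genes did, against 0 by library size alone and on all 3 TPM scales. Without the block 0 passed (13 at an unadjusted p under 0.05, against 6.35% of all genes). With the term for replicate 3, 5 of 136 passed, where 1.31% of all genes did. With no filter 12 of 140 passed, where 4.7% of all genes did. With DESeq2 7 of the 141 listed passed, where 4.5% of the genes with an adjusted p did, so these shares have unlike bases. With a library or pair left out 0 to 13 passed. The 13 of 136 were without replicate 2, where 7.87% of all genes passed.

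Class medians moved beyond the spread of the pairs on TPM as deposited, with pseudocounts of 0.5 and 1: to -0.05 and -0.04 for the autophagy core, 0.05 and 0.05 for cargo receptors (0.25 rescaled), -0.37 and -0.34 for mitophagy, -0.38 and -0.37 for transcription factors, -0.10 and -0.10 for lysosomal membrane and V-ATPase, and -0.06 and -0.06 for lysosomal enzymes. The median of all genes was -0.21 and -0.18 there and -0.04 rescaled. With a library or pair left out, the core stayed between 0.16 and 0.31 and the enzymes between 0.12 and 0.36.

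On TPM as deposited 14 of 39 members were positive. Among the members with values per library, 8 turned from a positive to a negative log2 fold change there. They were Ctsb (-0.19 at either pseudocount), Ctsl (-0.30 and -0.29), Gabarapl1 (-0.13 and -0.12), Lamp1 (-0.20 at either), Lamp2 (-0.10 at either), Map1lc3b (-0.09 at either), Nbr1 (-0.06 at either) and Tfeb (-0.12 and -0.11). Ctsl also had -0.02 by library size alone and -0.09 rescaled, and was -0.01 without replicate 3 and ran from -0.05 to 0.14 with a library or pair left out, Tfeb from -0.10 to 0.47 and Mcoln1 from 0.00 to 0.46. The cause was not tested beyond the rescaling. Mitf had the lowest counts of the members, 65 to 111 in siCOX7A2L and 130 to 157 in siCTRL, which limits its precision.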

Other observations

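For some members the deposited counts and the deposited TPM disagree about replicate 3. Mcoln1 had 27.6, 27.8 and 101 TPM in siCOX7A2L replicates 1, 2 and 3, against 27.0, 29.4 and 61.3 TPM in siCTRL, a far wider gap for replicate 3 than in CPM. Ctsb had 250, 217 and 78.9 TPM in siCOX7A2L, against 232, 232 and 119 TPM in siCTRL, while its CPM in replicate 3 was close to the other replicates. The ratio of count to TPM, which follows the transcript length used for a gene, was centred on each library's median and compared on the log2 scale. For Ctsb it was higher in replicate 3 by 1.03 in siCOX7A2L and by 0.86 in siCTRL, and for Mcoln1 it stood at -1.56 in siCOX7A2L and -0.75 in siCTRL. It differed by more than 0.5 for 5 of 39 members in siCOX7A2L and for 4 in siCTRL. These shares lie near the 11.2% and 8.8% of all genes, so such differences are not particular to the members. Gabarapl1 was beyond 0.5 in siCOX7A2L alone (0.61, against 0.40 in siCTRL). Levels per length of Ctsb, Mcoln1, Fundc1, Neu1 and Gabarapl1 in replicate 3 therefore depend on which deposited table is read.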
